A study of Mus musculus with 10 samples.

Results

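The 10 imprinted growth genes outside Dlk1-Dio3, itself an imprinted gene cluster, namely Zdbf2, Peg10, Igf2, Sgce, Peg3, Plagl1, Mest, Cdkn1c, Grb10 and Igf2r, were examined in fast skeletal muscle after knockdown of linc-MYH and in a conditional knockout. They were chosen by name among the 19938 genes with a probe set of their own, and each was carried by 1 probe set. Within them, Zdbf2, Peg10 and Igf2 were selected on their own values, because their mean signal was at least 2-fold higher after both perturbations. The differences of all 10 genes in both comparisons are therefore given as a description, without a test.

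Of the 10 Affymetrix Mouse Gene 1.0 ST arrays, 4 held tibialis anterior (TA) muscle, 2 electroporated with the control vector and 2 with shlincMYH, a short hairpin RNA against linc-MYH, which is a long non-coding RNA of the fast myosin heavy chain locus. The other 6 held gastrocnemius muscle, 3 of wild type control mice and 3 of conditional knockout mice. All mice were labelled as C56BL6N and 8 weeks old, and no deletion or agent was shared by all 4 groups. Both TA groups received 10 µg of plasmid expressing a hairpin together with GFP, and GFP-positive fibers were dissected 2 weeks later. The methods add that a LacZ hairpin served as the control in the opposite leg, and that the knockout carried flox alleles with a Cre driven by the human skeletal actin promoter, which is active in muscle fibers. Cells other than fibers thus kept the floxed gene in the knockout muscle. The methods describe TA muscles from different mice for each condition, whereas for gastrocnemius it is not stated that the arrays of a group came from separate animals, and p-values there may measure technical spread alone.

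Genomic imprinting is the silencing of a gene on the chromosome inherited from one parent, set by DNA methylation laid down in the egg or the sperm. Zdbf2, Peg10, Igf2, Sgce, Peg3, Plagl1 and Mest are transcribed from the paternal chromosome, and Cdkn1c, Grb10 and Igf2r mainly from the maternal one. Many of these genes regulate growth of the fetus and placenta and fall after birth in most tissues, and Igf2 is also used when muscle differentiates and regenerates. The arrays report total transcript, so they do not show which allele was read.

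The deposited values were log2 signals normalised by robust multi-array averaging (RMA). A log2 difference of 1 is a 2-fold change, and n was 2 per TA group and 3 per gastrocnemius group throughout. Array medians were close within each muscle but not between muscles, at 5.09 to 5.14 in TA and 6.60 to 6.67 in gastrocnemius. No signal of a gene was therefore compared between muscles or between probe sets. No probe set carried linc-MYH alone, and no check of the knockdown or the knockout is given here. Transcripts that define muscle fibers were bright on every array, with a mean log2 signal over 10 markers of 11.83 to 11.98 in TA and 13.37 to 13.53 in gastrocnemius, so the transcripts expected of the labelled tissue were present. In gastrocnemius muscle and in dissected TA fibers alike, a change in cell number of a type and a change in RNA per cell cannot be told apart. This holds for every value below. How many other cells came along with the dissected TA fibers was not measured.

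Promoters from 250 bases before to 50 bases after the transcription start were found in the RefSeq table (GRCm38.p6) for 7 of the 10 genes, 14 promoters in all. Both promoters of Zdbf2, the only one of Peg3 and 1 of the 4 of Igf2 are shown. These paternally expressed genes were higher on every perturbed array of both muscles. The maternally expressed Grb10 and Igf2r were also higher on every perturbed array, but their promoters are not shown. The Igf2 promoter was picked because it alone of the 4 held the hexamer described next. Capitals mark TGCCGC, or GCGGCA on the opposite strand, the hexamer bound in its methylated form by the zinc finger protein ZFP57, which keeps imprints through early development. The sequences are read 5′ to 3′ on the strand of the gene.
Zdbf2 first promoter (chr1:63200108-63200407, plus strand): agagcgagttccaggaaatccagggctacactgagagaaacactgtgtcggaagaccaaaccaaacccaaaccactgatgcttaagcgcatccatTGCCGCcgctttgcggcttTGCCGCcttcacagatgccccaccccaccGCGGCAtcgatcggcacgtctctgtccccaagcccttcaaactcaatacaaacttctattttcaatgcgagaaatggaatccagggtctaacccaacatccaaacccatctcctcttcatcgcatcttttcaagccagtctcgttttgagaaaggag
Zdbf2 second promoter (chr1:63273019-63273318, plus strand): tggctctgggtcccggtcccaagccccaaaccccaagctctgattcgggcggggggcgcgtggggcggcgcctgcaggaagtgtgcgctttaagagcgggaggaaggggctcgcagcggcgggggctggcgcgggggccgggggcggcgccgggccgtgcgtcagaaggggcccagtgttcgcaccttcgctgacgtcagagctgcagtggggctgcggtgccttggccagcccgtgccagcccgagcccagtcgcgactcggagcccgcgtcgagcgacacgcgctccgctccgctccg
Igf2 second promoter (chr7:142661222-142661521, minus strand): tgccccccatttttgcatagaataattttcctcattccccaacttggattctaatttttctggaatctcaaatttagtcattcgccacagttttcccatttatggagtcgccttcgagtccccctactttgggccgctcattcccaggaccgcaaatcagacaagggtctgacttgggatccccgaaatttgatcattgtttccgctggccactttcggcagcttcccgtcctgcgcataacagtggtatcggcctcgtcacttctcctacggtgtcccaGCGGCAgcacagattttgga
Peg3 promoter (chr7:6730370-6730669, minus strand): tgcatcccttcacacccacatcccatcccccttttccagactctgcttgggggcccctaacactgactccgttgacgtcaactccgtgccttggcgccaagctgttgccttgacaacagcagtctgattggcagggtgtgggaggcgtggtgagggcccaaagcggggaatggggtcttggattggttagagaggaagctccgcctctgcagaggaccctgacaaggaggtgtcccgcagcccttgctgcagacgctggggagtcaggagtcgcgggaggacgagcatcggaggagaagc

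The first Zdbf2 promoter held 3 copies of the hexamer and the second Igf2 promoter 1 copy, whereas the second Zdbf2 promoter, the Peg3 promoter and the other 3 promoters of Igf2 held 0. The second Zdbf2 promoter had 38 CpG dinucleotides, against a median of 7 over all 32851 promoters of the table. In total 6 of the 14 promoters held the hexamer, in 5 genes, compared with 11.6% of all promoters. Of these 6, a pair of Mest promoters overlapped almost entirely and shared their 2 copies. The E-box CANNTG, the site of the myogenic factors, was found in 9 promoters of 6 genes and in 72.3% of all promoters. These matches describe the letters of these windows only.

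Probe sets of a pair of microRNA genes inside 2 of the loci were also measured. Whether they report the host transcripts was not tested. Mir483 lies within Igf2 and Mir335 within Mest, and their mature sequences are given with the seed, bases 2 to 8, in capitals. The 4 seeds differ.
miR-483-5p: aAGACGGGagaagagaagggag
miR-483-3p: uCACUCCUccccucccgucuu
miR-335-5p: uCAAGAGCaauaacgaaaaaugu
miR-335-3p: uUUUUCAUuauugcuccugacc

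Zdbf2, a zinc finger gene whose paternal transcription in the embryo affects later body growth, had the largest difference of the 10 genes in both muscles. In TA its log2 signal was 6.18 and 5.86 with the control vector and 8.72 and 8.47 with shlincMYH. The 2 groups did not overlap, and the mean was 2.58 higher (SE 0.16), a 5.97-fold difference and the third largest of all genes. In gastrocnemius the signal was 6.70, 6.40 and 6.60 in control mice and 9.14, 9.003 and 7.76 in knockout mice. All 3 knockout arrays were above all 3 controls, but the third knockout array lay well below the other knockouts. The mean difference was 2.07 (SE 0.32), or 4.19-fold, and was 2.51 without that array.

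Peg10, a gene derived from a retrotransposon gag and pol sequence and needed for the placenta, was next. In TA the log2 signal was 5.43 and 5.17 in the controls and 8.39 and 7.09 with shlincMYH. Both hairpin arrays were above both controls, yet they differed from each other by more than the controls did, so the mean difference of 2.44 (SE 0.39), or 5.44-fold, became 1.80 without the first hairpin array and 3.09 without the second. In gastrocnemius the controls read 7.55, 7.36 and 7.25 and the knockout arrays 8.63, 8.85 and 8.03. The groups were again separate, with the third knockout array lowest, and the mean difference was 1.12 (SE 0.19), or 2.17-fold.

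Igf2, the fetal insulin-like growth factor, read 7.56 and 6.87 in the TA controls and 8.97 and 8.27 with shlincMYH. Its groups did not overlap and the mean difference was 1.41 (SE 0.30), or 2.65-fold, with as wide a gap between the controls as between the hairpin arrays. In gastrocnemius the signal was 10.28, 9.64 and 10.002 in the controls and 11.01, 10.91 and 11.03 in the knockout mice. The knockout arrays lay closer together than the controls, and the mean difference of 1.01 (SE 0.15), or 2.01-fold, was just inside the 2-fold limit. It fell under that limit when control replicate 2 was left out (0.84), and also without knockout replicate 1 or 3 or when each array was centred on its median. Peg10 fell under it in gastrocnemius only without knockout replicate 2 (0.95). Of the settings tried, Zdbf2 was the only one of the 3 genes that stayed above 2-fold in both muscles in each.

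**Figure D1:**
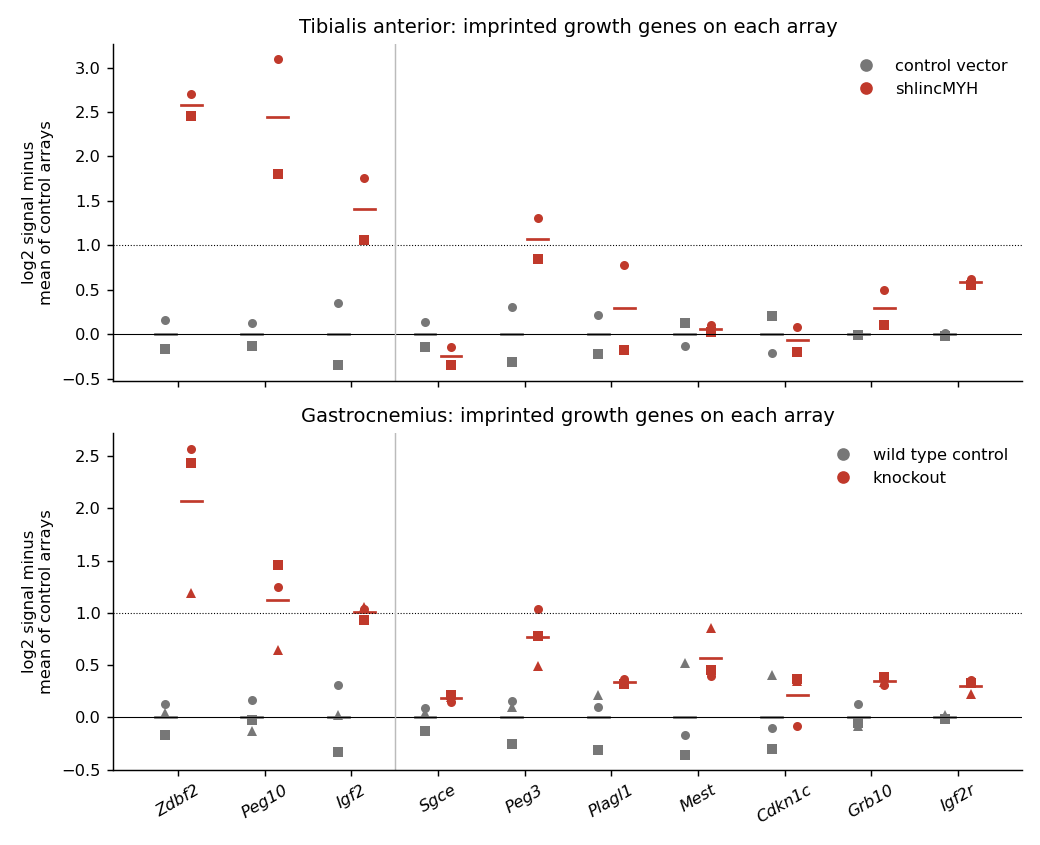
Log2 signal minus the mean of the control arrays of the same muscle for the 10 imprinted genes, 1 point per array (circle, square and triangle are replicates 1, 2 and 3), with group means as bars and the 2-fold limit dotted. Zdbf2, Peg10 and Igf2, left of the vertical line, were chosen for mean differences of at least 1, Peg3 passed 1 in tibialis anterior only, and the other 6 genes had mean differences between -0.24 and 0.59.

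The other paternally expressed genes differed among themselves. Peg3, a zinc finger regulator of growth and cell survival, read 8.06 and 7.44 in the TA controls and 9.06 and 8.60 with shlincMYH, and 8.50, 8.10 and 8.44 against 9.38, 9.13 and 8.84 in gastrocnemius. It was higher on every perturbed array, by 1.07 (SE 0.25) in TA and 0.77 (SE 0.15) in gastrocnemius, the nearest value outside the 2-fold limit in that muscle. Without TA control replicate 2 its TA difference was 0.76.

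Sgce encodes epsilon-sarcoglycan of the dystrophin-associated complex and is read divergently from Peg10, with which it shares an imprinted CpG island. Its signal was 5.89 and 5.60 in the TA controls and 5.61 and 5.40 with shlincMYH, a difference of -0.24 (SE 0.15) with overlapping groups. In gastrocnemius it was 9.02, 8.80 and 8.97 against 9.07, 9.14 and 9.12, a difference of 0.18 (SE 0.08) without overlap. Set against the control mean of each gene, the rise of Peg10 exceeded the change of Sgce by 3.23 and 2.14 on the hairpin arrays and by 1.10, 1.25 and 0.46 on the knockout arrays. Peg10 thus exceeded Sgce on every perturbed array, with the narrowest gap on the third knockout array.

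Plagl1, a zinc finger factor that regulates other imprinted genes, read 5.90 and 5.47 against 6.46 and 5.51 in TA. The groups were mixed there, and the difference of 0.30 (SE 0.32) turned to -0.18 without the first hairpin array. In gastrocnemius the signal was 7.70, 7.28 and 7.82 against 7.97, 7.92 and 7.93, without overlap and with a difference of 0.34 (SE 0.13). Mest, a hydrolase-like gene of the fetal mesoderm, was at 5.20 and 5.46 against 5.43 and 5.35 in TA, a difference of 0.06 (SE 0.14). In gastrocnemius it was at 7.01, 6.82 and 7.70 against 7.58, 7.63 and 8.03, so the third control lay among the knockouts. The difference of 0.57 (SE 0.22) was 0.83 without that control.

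The 3 maternally expressed genes restrain growth, and none reached 2-fold. Igf2r, the receptor that removes IGF2 for degradation, read 7.63 and 7.60 against 8.24 and 8.17 in TA, a difference of 0.59 (SE 0.12), and 9.49, 9.48 and 9.51 against 9.85, 9.82 and 9.72 in gastrocnemius, a difference of 0.30 (SE 0.07). Its replicates were close and its groups were separate in both muscles. Separate and higher groups were seen for 16.3% of all genes in TA and 11% in gastrocnemius. Grb10, an adaptor that dampens insulin and IGF receptor signalling, read 6.84 and 6.83 against 7.33 and 6.94 in TA and 9.64, 9.46 and 9.43 against 9.82, 9.90 and 9.85 in gastrocnemius. It was higher on every perturbed array, by 0.30 (SE 0.16) and 0.34 (SE 0.08). Cdkn1c, the cyclin-dependent kinase inhibitor p57, read 6.65 and 7.06 against 6.93 and 6.65 in TA and 8.25, 8.05 and 8.76 against 8.27, 8.72 and 8.70 in gastrocnemius. Its groups overlapped in both muscles, with differences of -0.06 (SE 0.18) and 0.21 (SE 0.19).

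By expressed allele, the 7 paternal genes had a median log2 difference of 1.07 in TA and 0.77 in gastrocnemius, and the 3 maternal genes 0.30 in both. The paternal medians include the genes chosen for their size, so no difference by allele is read from them. Without those genes, the paternal Sgce, Peg3, Plagl1 and Mest differed by -0.24, 1.07, 0.30 and 0.06 in TA. In gastrocnemius they differed by 0.18, 0.77, 0.34 and 0.57. The maternal Cdkn1c, Grb10 and Igf2r differed by -0.06, 0.30 and 0.59 in TA and by 0.21, 0.34 and 0.30 in gastrocnemius. On single arrays the median over Zdbf2, Peg10 and Igf2 was 2.70 and 1.80 above the control mean with shlincMYH and 1.25, 1.46 and 1.05 above it in the knockout, whereas that over the other 7 genes was 0.49 and 0.02, and 0.36, 0.37 and 0.34. The separation of the 3 from the 7 is fixed by how the 3 were chosen.

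Counts over the 10 genes are given beside those over all genes. In TA, 4 of the 10 were at least 2-fold higher, against 0.286% of all genes, and in gastrocnemius 3, against 0.291%. In limma at an adjusted p under 0.05, 0.015% of all genes were called higher and 0% lower in TA. In gastrocnemius the shares were 0.908% and 0.833%. The groups of 6 members were separate and higher in TA, against 16.3% of all genes and 23% separate and lower, and those of 8 members in gastrocnemius, against 11% and 9.85%. Since the members were picked with these values in view, no calls are given for them and nothing is read from these shares. Across the genome, 15 genes were at least 2-fold higher in both comparisons. Zdbf2, Peg10 and Igf2 are among these 15 by construction, because they were selected by the same rule. Nothing is read from their presence there.

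The nearest measured genes on either side of each locus, 54 in all after leaving out the members, were not used to choose the genes and were tested. In TA 0 of the 54 passed limma at an adjusted p under 0.05, with 2 higher and 2 lower at an unadjusted p under 0.05, which 4.27% of all genes passed as higher and 4.37% as lower. The neighbors had a median log2 difference of -0.01, against -0.03 for all genes. In gastrocnemius 1 passed, Mrgprh, a receptor gene near Igf2r, which was lower (log2 difference -0.63, SE 0.12, limma adjusted p = 0.0423). At an unadjusted p under 0.05 there were 10 higher and 3 lower, against 8.44% and 6.5% of all genes, and the median was -0.02, against 0.01 for all genes. With the methods' unpaired test and Benjamini-Hochberg adjustment 0 of the 54 passed in either muscle. The call of Mrgprh was lost without control replicate 1 (adjusted p = 0.154) or 2 (0.157) and without knockout replicate 1 (0.136), 2 (0.122) or 3 (0.0610), over a range of 0.0200 to 0.232 among all settings.

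At the Zdbf2 locus, Gpr1, which is also imprinted and adjoins it, differed by 0.04 (SE 0.17) in TA and -0.02 (SE 0.09) in gastrocnemius, and Adam23 on the other side by 0.36 (SE 0.19) and 0.07 (SE 0.07). The Zdbf2 differences of 2.58 and 2.07 were therefore not shared by the genes beside it. On the other side of Peg10 from Sgce, the imprinted Ppp1r9a differed by -0.15 (SE 0.12) and 0.19 (SE 0.08), and Casd1 beyond Sgce by 0.04 (SE 0.14) and 0.15 (SE 0.08). Asb4, further along the same imprinted cluster, was lower in gastrocnemius.

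At the Igf2 locus, Mir483 read 6.22 and 6.19 against 6.23 and 6.26 in TA, and 7.62, 7.82 and 7.56 against 7.44, 7.50 and 7.99 in gastrocnemius. Its groups overlapped in gastrocnemius, and its differences were 0.04 (SE 0.11) and -0.03 (SE 0.15), with limma adjusted p = 0.961 and 0.970, beside the 1.41 and 1.01 of its host. Ins2, the insulin gene that adjoins Igf2, differed by -0.06 (SE 0.14) and -0.09 (SE 0.10). H19, the maternal transcript of the same domain, was not analysed here because no probe set carried it alone. At Mest, Mir335 differed by -0.30 (SE 0.16) in TA and -0.02 (SE 0.11) in gastrocnemius.

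At Peg3, at Igf2r and at Grb10 an adjoining gene also had a mean above that of its controls in both muscles. Zim1, the imprinted zinc finger gene next to Peg3, differed by 0.67 (SE 0.37, limma adjusted p = 0.665) and 0.33 (SE 0.08, adjusted p = 0.0862). In TA it read 6.03 and 5.19 against 6.75 and 5.82, so the 2 groups overlapped, while in gastrocnemius it read 7.74, 7.58 and 7.64 against 8.09, 7.91 and 7.96, without overlap. Airn, the non-coding RNA read antisense across Igf2r from the paternal chromosome, was at 7.58 and 7.41 against 8.44 and 8.01 in TA and at 9.61, 9.32 and 9.88 against 10.15, 10.17 and 9.99 in gastrocnemius. The groups were separate in both muscles, with differences of 0.73 (SE 0.17, limma adjusted p = 0.434) and 0.50 (SE 0.13, adjusted p = 0.123) that did not pass. Airn and Igf2r overlap on opposite strands, and whether their probe sets keep them apart was not tested. Ddc, the imprinted gene next to Grb10, differed by 0.37 (SE 0.17, limma adjusted p = 0.613) in TA. In gastrocnemius it differed by 0.37 (SE 0.10, limma adjusted p = 0.125). The groups of Ddc were separate in both muscles, but it did not pass in either.

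**Figure D2:**
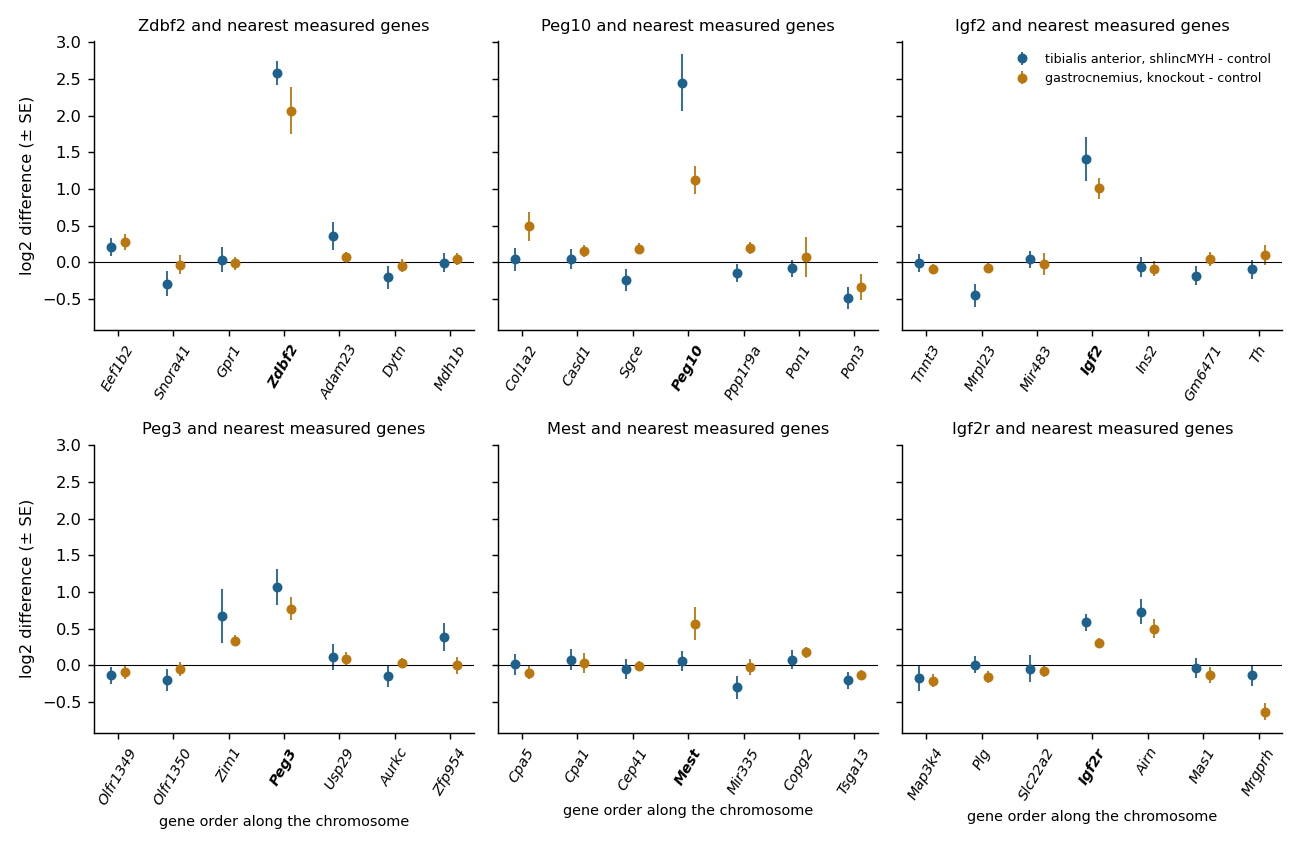
Log2 difference with its standard error for Zdbf2, Peg10, Igf2, Peg3, Mest and Igf2r (bold) and the 3 nearest measured genes on each side in chromosomal order, for tibialis anterior (2 against 2 arrays) and gastrocnemius (3 against 3). Zdbf2, Peg10 and Igf2 stood alone among their neighbors, which lay between -0.49 and 0.49, whereas Zim1 and Airn were above 0 beside Peg3 and Igf2r.

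Besides the 10, 54 imprinted genes outside Dlk1-Dio3 were measured, of 67 listed, and 20 of the 54 are also among the neighbors above. In TA 0 passed limma, with 1 higher and 3 lower at an unadjusted p under 0.05, against 4.27% and 4.37% of all genes. Their median log2 difference was -0.02, and the leading genes after Airn by the moderated statistic were Pon3 (-0.49, SE 0.15, adjusted p = 0.494) and Ano1 (-0.38, SE 0.14, adjusted p = 0.540). In gastrocnemius 2 passed, and the median was 0.04. At an unadjusted p under 0.05, 13 of the 54 were higher there and 2 lower, against 8.44% and 6.5% of all genes. The groups of 14 were separate and higher, against 11% of all genes. Ampd3, an AMP deaminase, read 9.48, 9.37 and 9.22 against 10.67, 10.50 and 10.03 and rose by 1.04 (SE 0.16, limma adjusted p = 0.0221). Asb4, a ubiquitin ligase adaptor gene of the Peg10 and Sgce cluster, read 7.75, 7.98 and 8.00 against 6.96, 6.86 and 7.28 and was lower (log2 difference -0.87, SE 0.12, limma adjusted p = 0.0164). Ndn, a growth suppressor of neurons, was at 0.35 (SE 0.07, adjusted p = 0.0614).

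Neither call was stable to leaving out arrays. Ampd3 was lost without control replicate 1 (adjusted p = 0.0638), 2 (0.0969) or 3 (0.0719) and without knockout replicate 1 (0.0705) or 2 (0.0919), over a range of 0.00368 to 0.204 among all settings. Asb4 was lost without control replicate 2 (0.0808) or 3 (0.0567) and without knockout replicate 1 (0.0732) or 2 (0.0655), over a range of 0.00562 to 0.185. In TA the same genes differed by 0.47 (SE 0.26, limma adjusted p = 0.660) for Ampd3 and -0.39 (SE 0.18, adjusted p = 0.607) for Asb4.

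Igf2 acts through a pathway of receptors, binding proteins and adaptors, of which 20 genes besides the members were measured. In limma 0 of the 20 passed in either muscle, with 0 higher and 2 lower at an unadjusted p under 0.05 in TA and 3 higher and 2 lower in gastrocnemius. The unadjusted shares over all genes were 4.27% higher and 4.37% lower in TA, and 8.44% and 6.5% in gastrocnemius. The median log2 differences were -0.11 and 0.01. In TA, Igf1, the postnatal growth factor, read 7.25 and 7.56 against 6.93 and 6.66, a difference of -0.61 (SE 0.16, limma adjusted p = 0.471), and the adaptor gene Irs1 was at -0.56 (SE 0.13, adjusted p = 0.431). In gastrocnemius Igf1 was at 0.29 (SE 0.21), with its controls spread from 8.69 to 9.64. Igfbp5, which binds IGFs in muscle, read 11.40, 11.79 and 11.97 against 12.38, 12.31 and 12.44, a difference of 0.66 (SE 0.14, adjusted p = 0.0620). The receptor gene Igf1r was at 0.22 (SE 0.07, adjusted p = 0.184).

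Regulators that set or keep imprints, such as DNA methyltransferases and ZFP57 partners, did not pass either. In limma 0 of 22 were called in both muscles, with 2 higher in TA and 3 higher in gastrocnemius at an unadjusted p under 0.05, and medians of -0.03 and 0.05. Over all genes, 4.27% were higher at that limit in TA and 8.44% in gastrocnemius. Dnmt1, the maintenance methyltransferase, led in both with 0.43 (SE 0.14, limma adjusted p = 0.517) and 0.26 (SE 0.08, adjusted p = 0.176). Genes derived from retrotransposon gag sequences, the relatives of Peg10, were at 0 called of 18 in both muscles, and also 0 at an unadjusted p under 0.05. They lay between -0.24 and 0.25 in TA and between -0.15 and 0.16 in gastrocnemius, beside the 2.44 and 1.12 of Peg10. Their mean log2 signal in the controls was 4.37 to 4.39 in TA and 5.68 to 5.80 in gastrocnemius. These means lay below the array medians of 5.09 to 5.14 and 6.60 to 6.67. A change in such dim signals may not show, and whether it would was not tested. The methods' unpaired test with Benjamini-Hochberg adjustment called 0 genes of any of these lists.

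**Figure D3:**
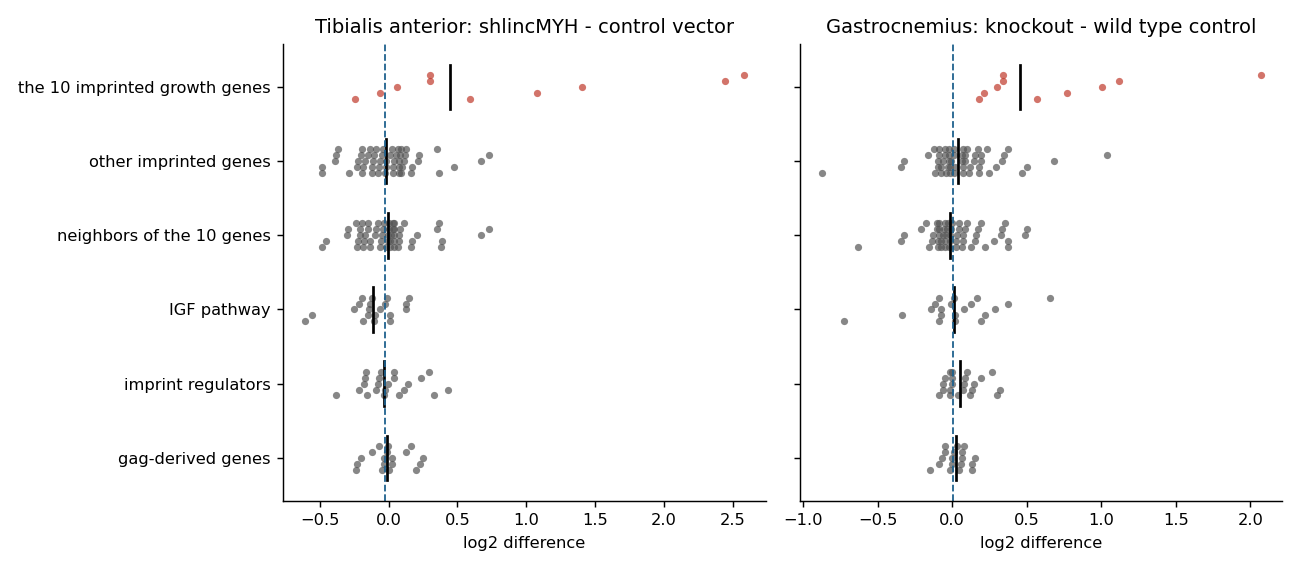
Log2 difference of each gene (points) in the 10 imprinted growth genes, in other imprinted genes (54), in neighbors of the 10 genes (54), in the IGF pathway (20), in imprint regulators (22) and in genes derived from retrotransposon gag sequences (18), with the list median as a bar and the median of all genes as a dashed line. Zdbf2 and Peg10 lay above 2 in tibialis anterior and Zdbf2 in gastrocnemius, while no gene of the other lists exceeded 0.73 and 1.04.

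Over the 10 arrays, each signal taken minus the mean of its muscle, the genes most like Zdbf2, Peg10 and Igf2 were sought among the 240 genes with a standard deviation of at least 0.5. Genes with less spread were not ranked, among them Igf2r, which had r = 0.97 with Zdbf2 and 0.96 with Peg10. The arrays of a muscle share the contrast between control and perturbed groups, so these correlations describe mainly that shared step. Zdbf2 was most like Chrng (Pearson r = 0.99), the fetal acetylcholine receptor subunit that returns after denervation, followed by the slow troponin gene Tnni1 (0.97), the kinase gene Dclk1 (0.96), Tnnt2 (0.96), a troponin of heart and fetal muscle, and Peg3 (0.95). Chrng read 5.33 and 5.03 against 6.48 and 6.51 in TA and 6.54, 6.42 and 6.51 against 7.74, 7.79 and 7.27 in gastrocnemius, lowest among knockouts on the third array as for Zdbf2. With group means removed, r between Zdbf2 and Chrng was 0.93. The third knockout array lay farthest from its group mean in both genes, and r without it is not given.

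Peg10 was most like Myh8 (0.98), the perinatal myosin heavy chain, then Dclk1 (0.96), Tnni1 (0.96), Myh3 (0.96), the embryonic myosin, and Mymk (0.95), the fusion protein of myoblasts. Myh8 read 7.20 and 6.75 against 9.17 and 8.01 in TA and 8.10, 7.97 and 8.08 against 9.18, 8.95 and 8.49 in gastrocnemius, so the first hairpin array was the higher one in TA for both genes. Igf2 was most like Peg3 (0.96), then the slow troponins Tnni1 (0.96) and Tnnt1 (0.95), Mymk (0.94) and the slow troponin Tnnc1 (0.93). With group means removed, r was 0.93 for Peg10 and Myh8 and 0.82 for Igf2 and Peg3. For Peg10 and Myh8 both hairpin arrays lay farthest from their group mean.

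**Figure D4:**
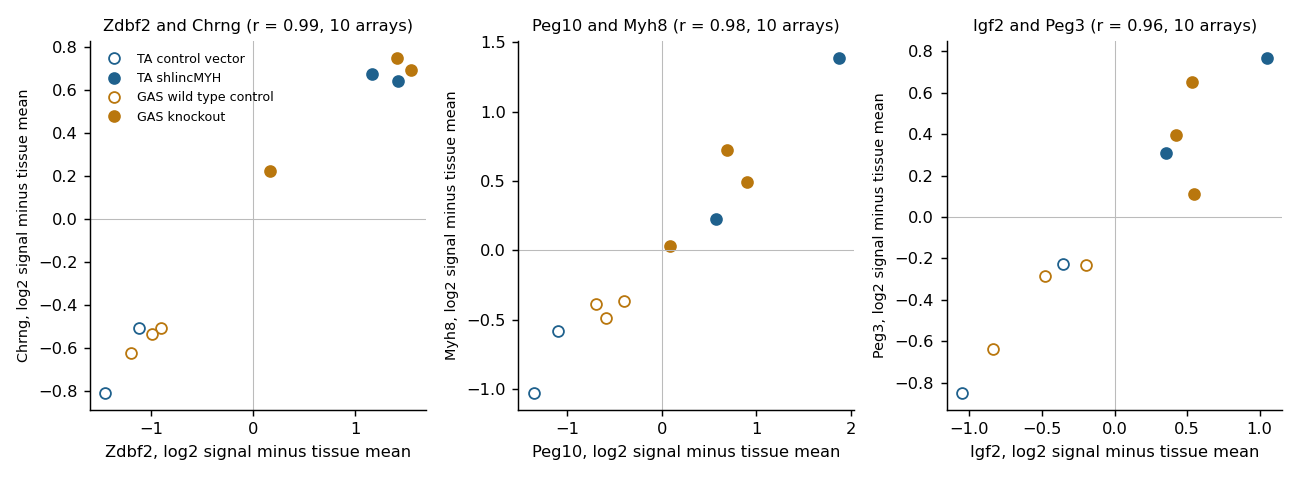
Signals of Zdbf2, Peg10 and Igf2 against the gene most like each (Chrng, Myh8 and Peg3), as log2 signal minus the mean of the same muscle, 1 point per array, open for controls and filled for perturbed arrays. Within each muscle the controls lie below the perturbed arrays on both axes. The genes were chosen for this step or for likeness to genes with it, so nothing is read from the separation. The third knockout array lies lowest of the filled gastrocnemius points for Zdbf2 and Peg10.

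Among the members, Zdbf2 and Igf2r had r = 0.97 over the 10 arrays, Peg10 and Igf2r 0.96, Zdbf2 and Peg10 0.93, and Zdbf2 and Igf2 0.90. Sgce had r = -0.07 with Peg10, 0.02 with Zdbf2 and 0.19 with Igf2. With group means removed the order was different, at 0.95 for Igf2 and Sgce, 0.93 for Zdbf2 and Igf2r, 0.54 for Peg10 and Sgce and 0.26 for Zdbf2 and Igf2. Mest and Cdkn1c, which overlapped between groups in gastrocnemius, had r = 0.81 and 0.85 with group means removed. These are values over 10 points from 4 groups, and the probe sets share each array's normalisation.

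Markers of other states and cell types are given for the same groups, and their counts stand beside these shares over all genes. At an unadjusted p under 0.05, 4.27% were higher and 4.37% lower in TA, and 8.44% and 6.5% in gastrocnemius. Limma called 0.015% of all genes higher in TA and 0.908% in gastrocnemius. Satellite and regenerating muscle cell markers, 12 in all, had a mean log2 signal of 5.57 to 5.85 in the TA controls and 6.28 to 6.52 with shlincMYH, and of 7.47 to 7.65 against 7.84 to 8.12 in gastrocnemius. Of the 12, 0 passed limma in TA, with 6 higher at an unadjusted p under 0.05, and 3 passed as higher in gastrocnemius, Myog (0.82), Mymk (0.76) and Myh8 (0.83), with limma adjusted p from 0.0139 to 0.0483. The 8 denervation-responsive genes had median log2 differences of 1.21 and 0.87, with 0 called in TA, 8 of them higher at an unadjusted p under 0.05, and 4 called in gastrocnemius. Myog and Ncam1 are in both lists. The 8 slow fiber genes had medians of 1.15 and 1.11, with 0 called in TA, 5 of them higher at an unadjusted p under 0.05, and 8 called in gastrocnemius.

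Endothelial markers had a median of -0.59 in TA, with 0 of 10 called and 7 lower at an unadjusted p under 0.05, and 0.07 in gastrocnemius. Macrophage markers had medians of 0.01 and 0.73. In gastrocnemius 1 of 9 passed as higher, Mrc1 (0.77, limma adjusted p = 0.0139), and 6 of 9 were higher at an unadjusted p under 0.05, against 0 in TA. Their mean log2 signal was 7.52 to 7.75 in the gastrocnemius controls and 7.99 to 8.68 in the knockouts. Fibroblast markers, 9 in all, had medians of 0.05 and 0.33 and 0 called. At an unadjusted p under 0.05, 0 were higher in TA and 8 in gastrocnemius, where all 9 were above 0 and Postn was at 1.10 (SE 0.26, limma adjusted p = 0.0888), and their mean signal was 9.71 to 10.13 against 10.31 to 10.37 in gastrocnemius. Smooth muscle (medians -0.44 and 0.01), Schwann cell (-0.24 and 0.08) and adipocyte (-0.16 and 0.30) markers had 0 called in either muscle. The part of any of these in the differences of Zdbf2, Peg10 and Igf2 was not tested.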

How the data were processed

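RNA of 4 TA and 6 gastrocnemius samples was measured, and groups came from the sample labels. The gene deleted in the knockout is not reported here. The authors deposited log2 signals, 1 per probe set and array (35556 probe sets, 0 missing), made by RMA. Partek is also listed in the processing notes, without a version, and the methods name R. Labels and methods differ on the age at electroporation, the amplification kit and the RNA amount, and whether both muscles were normalised in 1 run is not given in the sources used here. RMA hides a shift common to all genes and compresses dim and bright signals.

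Gene names came from the platform annotation (21789 probe sets with 1 symbol, 1621 with several, 12146 with none), and 21698 matched a RefSeq gene (GRCm38.p6) by Entrez number. Among the probe sets of 999 genes that had several, the brightest on average was kept. Each muscle was fitted alone with limma 3.58.1 in R 4.3.3, with Benjamini-Hochberg adjustment over 19938 genes and a threshold of 0.05, without a block. The scripts were tested on simulated data. Depth does not apply to arrays, and their number limits the precision. Figures were drawn with matplotlib 3.10.9.

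The members and lists were chosen with earlier results of these data known. Named genes were the 10 members, the 3 nearest measured genes on each side, listed genes that limma called or else the leading 3 by moderated statistic, and the 5 genes most correlated with Zdbf2, Peg10 and Igf2. Others (Igf1 in gastrocnemius, and Mir483, Mir335 and Asb4 in TA) were given for both muscles once named. Alternatives were quantile normalization, median centring, leaving out dim genes, the mean of all probe sets, all 10 arrays in 1 fit, a trended and robust prior, a block for replicate number, the unpaired test of the methods and leaving out each array.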

Additional observations from a re-analysis of the deposited data

Results flagged for a closer look

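Sgce was the one member whose perturbed arrays all moved in opposite directions in the 2 muscles relative to the control mean. Its log2 difference was -0.24 in TA after shlincMYH and 0.18 in gastrocnemius in the conditional knockout. The perturbations differ as well as the muscles, the TA groups overlapped, and the difference between the 2 was not tested. Groups of 2 and 3 arrays are too small for a search for outlying arrays.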

How the results depend on the processing

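Leaving out 1 array can move a member only by less than its replicate spread, so those values are no sign of stability. The signs of Plagl1, Mest and Cdkn1c in TA turned when 1 array was left out (-0.18 to 0.78, -0.07 to 0.19 and -0.27 to 0.14), and Peg10 ranged from 1.80 to 3.09 there. The median of Zdbf2, Peg10 and Igf2 ranged from 1.80 to 2.70 in TA and from 1.05 to 1.35 in gastrocnemius when each array was left out in turn, and that of the other 7 genes from 0.02 to 0.49 and from 0.29 to 0.42. The counts over all genes depended more on the setting. In TA, 3 genes were called higher, 10 with median centring, 105 with all 10 arrays in 1 fit (26 lower, against 0), 0 with the methods' unpaired test and 0 when any array was left out. In gastrocnemius, 181 were called higher and 166 lower. Leaving out each array gave 32 to 351 higher and 19 to 209 lower, with the fewest without knockout replicate 2 and the most without knockout replicate 3. The count of genes called lower was 254 without dim genes, 282 with a trended and robust prior and 102 with all 10 arrays in 1 fit, and the methods' unpaired test called 3 higher and 1 lower. With the replicate block, 5 genes were called higher in TA, and 119 higher and 67 lower in gastrocnemius. The block lowered the TA adjusted p of Zim1 from 0.665 to 0.278 (0.278 to 0.943 over all settings). Over all genes, same-numbered arrays deviated from their group means with r = 0.19 in TA, and 0.22, -0.14 and 0.08 in gastrocnemius. The control hairpin was in the opposite leg in TA, but no source ties a number to a mouse. The cause of the shifts between settings was not tested. Signal near background limits dim genes.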
